A study of Mus musculus with 2 samples.

Results

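Mature neutrophils low in granule genes were picked cell by cell from 2 single-cell RNA libraries of mouse liver immune cells. Cells needed 500 or more UMIs (unique molecular identifiers, each standing for 1 captured RNA molecule), 300 or more genes, and a mitochondrial share of UMIs no higher than 10%. A kept cell entered the gate with at least 3 of the 6 neutrophil genes Csf3r, Retnlg, Cxcr2, Mmp9, Il1r2 and G0s2, and with S100a8 and S100a9 at 1% of its UMIs or more. The secondary granule genes Ltf, Ngp and Camp had to stay under 0.5% of its UMIs. Cd79a, Cd3e, Ncr1 and Siglech, lineage genes of other cell types, had to be at 0. In all, 2692 of 35399 kept cells met the rule, 2375 from the untreated library and 317 from the ConA library.

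Both libraries came from wild-type C57BL/6J mice. Those of the ConA library had received low-dose ConA (concanavalin A, a T cell mitogen from jack beans) into a vein at 10 mg/kg, 1 time a week for 3 weeks, as a model of immune tolerance, and the controls were age-matched untreated mice. Liver immune cells were enriched on a Ficoll gradient and sorted for CD45, a surface protein of all leukocytes. The number of mice, their age, and the time from the last injection to collection are not given in the sources used here. There is 1 library per group, so no test between groups was possible and every difference below describes these libraries, not the treatment.

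Neutrophils are short-lived phagocytes that leave the bone marrow after they have made their granule proteins. In blood and tissue they keep S100a8 and S100a9, which encode the calprotectin subunits, and express receptors that steer them to inflammation, while granule genes such as Ltf and Camp are switched off. Interferons act on neutrophils through surface receptors, JAK kinases and STAT factors, which bind elements near the starts of antiviral genes.

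The libraries held 71289226 (untreated) and 73589264 (ConA) UMIs, and 17632 and 17767 cells were kept. The gated cells had medians of 2572 and 2730 UMIs, 1113 and 1273 genes and 0.673% and 0.471% mitochondrial UMIs, and together held 6754646 and 908307 UMIs. A single UMI is thus worth 0.148 and 1.10 CPM, the UMIs of a gene scaled to 1000000 UMIs of the gated cells, so low levels are less precise in the ConA library. Of the barcodes, 82 occurred in both libraries, none of them in the gate in both. Paired values below give the untreated library first, log2 ratios are ConA over untreated, and 95% intervals cover counting error only. Levels are not scaled by gene length, because reads come from the 3′ ends, and are compared only within a gene.

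Mature neutrophils made up 13.5% (exact Clopper-Pearson interval 12.97 to 13.98) of the kept untreated cells and 1.78% (1.59 to 1.99) of the kept ConA cells. The share was 7.55-fold lower with ConA, and its log2 ratio was -2.92 (-3.09 to -2.75, exact conditional interval). A Ficoll gradient separates granulocytes by density, and it, the sort and the UMI minimum all come before these shares. Their part was not tested. Cells with the same gate but granule genes at 0.5% of UMIs or more, the immature neutrophils, numbered 11 and 85. They were 0.461% (0.230 to 0.823) and 21.1% (17.3 to 25.5) of all gated neutrophils, mature and immature together.

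Few cells lay next to the numerical limits of the gate. The requirement of Cd79a, Cd3e, Ncr1 and Siglech at 0 left out more, 788 and 159 cells that met every other criterion. Of the gated cells, 142 and 25 had the minimum of 3 neutrophil genes, and 77 and 7 other cells missed the gate with 2 of them. Cells with an S100 share from 1 to 2% numbered 96 and 17, and 58 and 8 cells missed the gate with a share from 0.5 to 1%. A further 366 and 29 cells missed it with a share under 0.5%. Granule genes took 0.25 to 0.5% of UMIs in 7 and 7 gated cells, and 0.5 to 1% in 1 and 9 cells outside the gate. No granule UMI was found in 87.7% and 59.9% of the gated cells. The gate limits these genes, so the shares are a description only.

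The genes that defined the gate are given as a description. Csf3r, the receptor of the neutrophil growth factor G-CSF, was 3135 and 3294 CPM. Retnlg, a secreted resistin-like protein, was 11444 and 7407 CPM. Cxcr2, the receptor for CXC chemokines that draws neutrophils from marrow to tissue, was 1647 and 1225 CPM, and the gelatinase gene Mmp9 was 726 and 1212 CPM. Il1r2, the decoy receptor for interleukin-1, was 2516 and 2441 CPM, and the lipase inhibitor gene G0s2 was 232 and 315 CPM. S100a8 was 61637 and 45397 CPM and S100a9 78069 and 59411 CPM. Of the granule genes that the gate limits, Camp and Ngp read higher in the ConA library, as did their estimated free RNA level. Because the gate caps them, their values are a description only. Camp was 9.62 and 98.0 CPM against an estimated free RNA level of 11.02 and 70.8 CPM, and Ngp 72.7 and 214 CPM against 8.92 and 54.5 CPM. Free RNA, released into the suspension and caught in every droplet, was estimated from the immunoglobulin gene Igkc and came to 11.1% and 11.8% of the gated cells' UMIs.

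The label of mature neutrophils was checked with 12 neutrophil genes that the gate did not use. All 12 were higher in the gated cells than in the rest of their library, in both libraries, with summed levels of 10742 and 7827 CPM against 785 and 346 CPM. The Ly6g gene, which encodes the antigen of the neutrophil antibody 1A8, was 107 and 91.4 CPM, and Hdc, the enzyme that makes histamine, was 2226 and 1856 CPM. Trem1, a receptor that amplifies inflammatory signals, was 301 and 318 CPM. Lrg1, a secreted glycoprotein stored in neutrophil granules, stood apart from the others at 1524 and 482 CPM, and its log2 ratio was -1.66 (-1.80 to -1.52). Cebpe, the transcription factor of the granule-making stage, was at 5.33 and 15.4 CPM, and the proliferation genes Mki67 and Top2a at 3.55 and 6.61 and at 1.92 and 5.50 CPM.

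Markers of other cells were low, with 2 exceptions. The macrophage markers summed to 13.5 and 6.61 CPM, with Clec4f, Vsig4 and Marco at 0 in both libraries. The 5 eosinophil markers summed to 9.18 and 15.4 CPM, against 17.3 and 15.8 CPM in the rest of each library. Of these 5, the granule genes Epx and Prg2 were at 0 in both libraries. Above the rest of their library were 2 and 1 of the 5, and 1 was at least 2-fold higher in the ConA cells. Markers of dendritic cells summed to 28.9 and 28.6 CPM, of plasmacytoid dendritic cells to 14.4 and 7.71, of B cells to 222 and 296, of T cells to 84.1 and 159 and of NK cells and innate lymphoid cells to 121 and 146 CPM. These are each below the level in the rest of the library. Cd79a, Cd3e, Ncr1 and Siglech are among these markers and were at 0 by the rule of the gate. The first exception is the monocyte list, which summed to 1426 and 445 CPM. At least 2-fold lower in the ConA cells were 4 of its 6 markers, against 7.42% of all genes at 50 CPM or more. Its member Ly6c2 was 802 and 159 CPM, Ms4a6c 223 and 42.9, Ccr2 133 and 56.1, F13a1 98.3 and 37.4 and Csf1r 98.3 and 101.3 CPM, and none of the 6 was at 0. Ccr2 and F13a1 were under 2-fold in cells below 1% hemoglobin, at -0.91 and -0.92. The second is the erythroid list, which summed to 6183 and 59285 CPM, against 11117 and 56392 CPM in the rest of each library. Plasma cell markers summed to 17.2 and 178 CPM, hepatocyte markers to 61.9 and 13.2, platelet markers to 24.3 and 8.81, basophil and mast markers to 1.78 and 9.91 and endothelial markers to 3.41 and 0 CPM. Of the 5 T cell markers 2, and of the 3 plasma cell markers 1, were at least 2-fold higher in the ConA cells. Of the 5 hepatocyte markers 3, and of the 5 platelet markers 1, were at least 2-fold lower. Of all genes at 50 CPM or more, 4.27% were higher and 7.42% lower by that measure. A T cell marker was found in 17.6% and 34.1% of the gated cells and a plasma cell marker in 4.88% and 39.1%.

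Hemoglobin UMIs were unevenly spread over the cells. Their median share was 0.146% of a cell's UMIs in the untreated and 0.829% in the ConA library, and the 95th percentiles were 0.457% and 11.04%. In the untreated library 28 gated cells had 1% or more, and in the ConA library 108 had. The highest single cells reached 72.3% and 66.5%. Because hemoglobin takes UMIs from all other genes, values for the 2347 and 209 cells below 1% are given beside the results they touch.

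Of 3140 genes at 50 CPM or more in at least 1 library, 233 were at least 2-fold lower in the ConA cells (7.42% of the genes tested) and 134 at least 2-fold higher (4.27%), 11.7% in either direction. For this call 5 CPM was added to both levels before the log2 ratio was taken, which holds back sparse genes. The median gene had a log2 ratio of 0.20, so the balance of levels leaned to the ConA library. Measured against that median, 303 genes were at least 2-fold lower and 67 higher. In the plot of gene levels, interferon-stimulated genes form the arm below the diagonal and hemoglobin genes the arm above it.

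**Figure D1:**
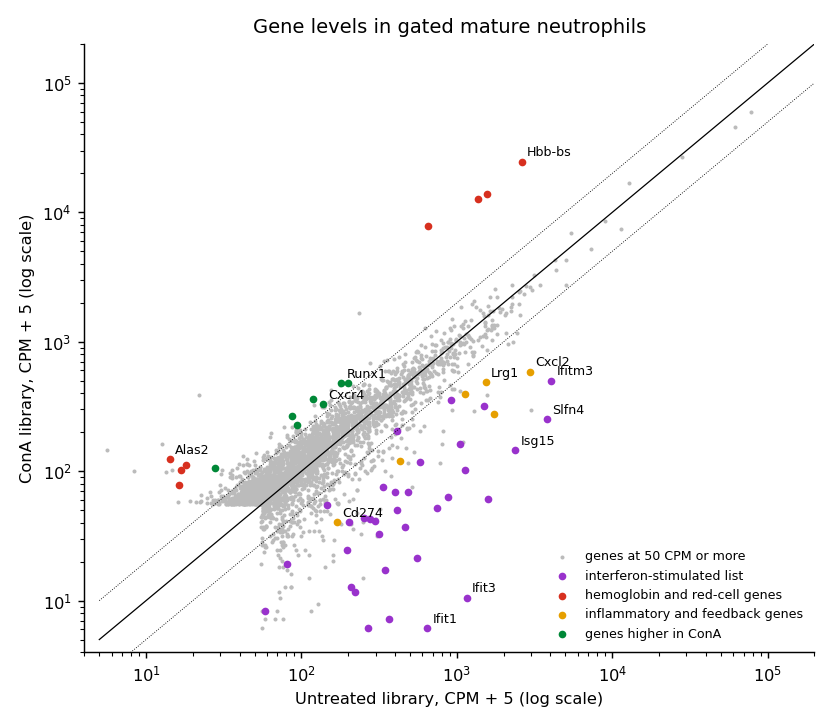
Each point is a gene at 50 CPM or more in at least 1 library, placed by its level plus 5 CPM in untreated (x axis) and ConA (y axis) gated mature neutrophils, on log scales. The solid line marks equal levels and the dotted lines 2-fold differences. Ifit3, at 1154 and 5.50 CPM, lies far below the diagonal and Hbb-bs, at 2613 and 24580 CPM, far above it.

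Interferon-stimulated genes, the antiviral set switched on by type I interferon, were lower in the ConA mature neutrophils. All 34 of the 37 measured list members that reached 50 CPM were at least 2-fold lower, where 7.42% of all genes were. Many of the 34 reached 50 CPM in the untreated cells alone, such as Usp18 at 215 and 6.61 CPM. For these the filter itself requires the higher level in the untreated cells. Others, such as Trim30a at 1487 and 314 CPM, reached 50 CPM in both libraries. Their median log2 ratio was -3.03, against 0.20 for all genes tested. Summed over the 37 members, the list took 26538 CPM in untreated and 2868 CPM in ConA cells, a 9.25-fold difference. Ifit3, which helps to pass on the antiviral signal, was 1154 and 5.50 CPM, and its log2 ratio was -7.71 (-9.33 to -6.49). Ifit1, which binds viral RNA caps, was 636 and 1.10 CPM, the latter a single UMI, a log2 ratio of -9.18 (-14.5 to -6.70). Isg15, a ubiquitin-like protein joined to other proteins during infection, was 2356 and 140 CPM, and its log2 ratio was -4.07 (-4.34 to -3.82).

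The same held for genes at a high level in untreated neutrophils. Slfn4, a Schlafen family member of myeloid cells, was 3795 and 247 CPM, and its log2 ratio was -3.94 (-4.14 to -3.75), and its relative Slfn5 was 1586 and 56.1 CPM. Ifitm3, a membrane protein that blocks virus entry, was 4042 and 495 CPM, and Rsad2, the antiviral enzyme viperin, was 1115 and 96.9 CPM. Irf7, the transcription factor that amplifies the type I response, was 459 and 31.9 CPM. Differences were smaller for Slfn1, at 907 and 352 CPM, and for Irf9, a DNA-binding factor of the type I response, at 140 and 49.5 CPM. The other genes named as most different in this direction, Ifit3b, Ifit2, Herc6, Zbp1, Usp18, Ifi207, Xaf1, Oasl1, Cxcl10 and Ifi204, had log2 ratios from -7.91 (Ifit2, 265 and 1.10 CPM, the latter a single UMI) to -3.90 (Ifi204, 870 and 58.4 CPM). Ifit3 and Ifit3b are near-identical copies, so the division of UMIs between them is uncertain.

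The promoters of 3 of these genes are shown because the interferon response element that the factors bind can be read in them. Each is the 250 bases before the gene's start, 5′ to 3′ on the gene's strand, from RefSeq on GRCm38.p6. Capitals mark every match to the letters GAAA, any 2 bases and GAAA again, on either strand, overlapping matches included. Ifit3 lies at chr19:34583279-34583528 on the plus strand, Ifit1 at chr19:34640639-34640888 on the plus strand and Isg15 at chr4:156200819-156201068 on the minus strand.
Ifit3: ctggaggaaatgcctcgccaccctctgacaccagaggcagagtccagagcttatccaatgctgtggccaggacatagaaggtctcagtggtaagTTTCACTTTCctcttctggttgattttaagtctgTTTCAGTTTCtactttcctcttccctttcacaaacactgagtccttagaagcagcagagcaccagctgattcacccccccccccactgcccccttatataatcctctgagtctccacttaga
Ifit1: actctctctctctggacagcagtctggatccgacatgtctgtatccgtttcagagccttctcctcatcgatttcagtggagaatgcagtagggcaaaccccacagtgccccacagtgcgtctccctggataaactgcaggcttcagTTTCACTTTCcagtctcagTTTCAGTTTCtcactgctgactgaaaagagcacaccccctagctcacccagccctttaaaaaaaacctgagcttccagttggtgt
Isg15: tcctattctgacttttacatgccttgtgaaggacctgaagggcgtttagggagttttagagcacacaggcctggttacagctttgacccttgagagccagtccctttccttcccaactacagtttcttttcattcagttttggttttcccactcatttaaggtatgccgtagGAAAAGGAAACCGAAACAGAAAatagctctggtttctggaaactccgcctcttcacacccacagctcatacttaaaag
Ifit3 and Ifit1 each hold 2 matches, with the same 2 sequences in the same order, the nearer of them beginning 122 and 85 bases before the start. Isg15 holds 3 that overlap, the last beginning 66 bases before the start. Windows of 300 bases, from 250 before to 50 after the start, were found for 2503 of the 3140 genes tested. A match was present in 27.9% of the 190 genes at least 2-fold lower with a window, in 3.06% of the 98 at least 2-fold higher and in 4.15% of the 2215 between. It was present in 3.99% of all 27025 genes of the promoter table. Among genes at least 2-fold lower that are not on the interferon-stimulated list, 39 of 165 held it (23.6%). The lower genes off that list still include genes induced by interferon-gamma, such as Gbp2, Gbp5 and Irgm1. This share is thus not one for genes outside the interferon response. The shorter gamma-activated element TTCNNNGAA occurred in 15.3%, 6.12% and 8.08% of the lower, higher and intermediate genes, and the NF-kappaB consensus in 13.2%, 11.2% and 6.77%. A match describes the letters and not a bound factor. Of the interferon-stimulated list, 14 of the 25 genes with a window held it (56%). Slfn4, Ifit2, Oasl1, Irf7, Herc6 and Xaf1 have none in the 250 bases before their starts.

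Nearly every untreated cell carried interferon-stimulated UMIs and few ConA cells carried many, as the plot of UMI shares per cell shows. The list took a median of 2.58% of a cell's UMIs in the untreated library, with 5th and 95th percentiles of 1.26% and 4.40%, and the lowest cell had 0.167%. In the ConA library the median was 0.229%, the percentiles 0.0482% and 0.809% and the highest cell 2.14%. Of 317 ConA cells, 5 lay above the untreated 5th percentile and 0 above the untreated median, and 1 of 2375 untreated cells lay below the ConA median. The ranges of the libraries thus overlap only in their tails. When each cell was thinned to 1000 UMIs, leaving out 132 and 16 shallower cells, the median number of list genes with a UMI was 13 and 2. No list gene was found in 0 of 2243 untreated cells and in 42 of 301 ConA cells (14.0%).

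**Figure D2:**
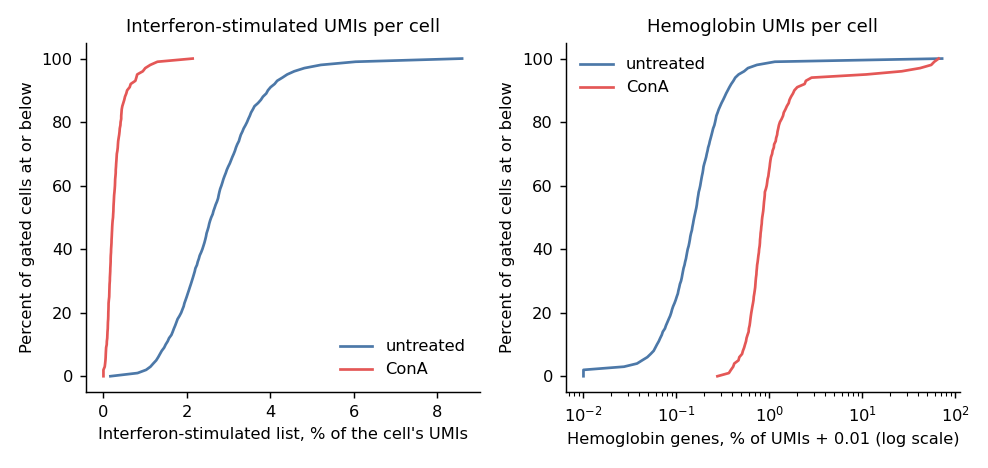
Cumulative distributions over gated mature neutrophils of the share of UMIs from the interferon-stimulated list (left) and from 4 hemoglobin genes (right, log scale, 0.01 added), with the percent of cells at or below each share on the y axis. The interferon curves lie apart, with medians of 2.58% and 0.229%, and the ConA hemoglobin curve lies to the right with a tail of cells above 10%.

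The interferon difference was present in every subset examined. The log2 ratio of the summed list was -3.05 in cells with fewer than 2000 UMIs, -3.25 from 2000 to under 3500 and -3.23 with 3500 or more. It was -3.35 in cells with 3 or 4 of the gate's neutrophil genes and -3.17 in those with 5 or 6. In cells without a granule UMI it was -3.12 and in cells with 1 or more -3.29, and the list was lower with and without traces of granule RNA. In cells below 1% hemoglobin it was -3.13. It was smaller, at -2.45, in the 28 and 108 cells with 1% or more. When Csf1r, C1qa and 5 lymphoid genes were also required at 0, the median of the list was -3.02 in 1404 and 156 cells.

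Genes induced chiefly by interferon-gamma were lower too. Of 16 members 10 reached 50 CPM, 9 of them were at least 2-fold lower, where 7.42% of all genes were, and 0 higher, and the median log2 ratio was -2.60. All 9 reached 50 CPM in the untreated cells alone and were between 1.10 and 39.6 CPM in the ConA cells. Socs1, at 62.2 and 25.3 CPM, was under 2-fold in 3 of 23 alternatives. The guanylate-binding protein gene Gbp5, which takes part in attacking vacuoles of microbes, was 71.1 and 2.20 CPM (2 UMIs in ConA cells), Gbp2 211 and 30.8 CPM and the immunity-related GTPase gene Irgm1 138 and 13.2 CPM. Fcgr1, the high-affinity receptor for IgG, was 50.9 and 1.10 CPM. Its estimated free RNA level in untreated cells was 16.2 CPM. Of the 10 members that reached 50 CPM, Irf1 was nearest to equal, at 436 and 277 CPM, and its log2 ratio was -0.65 (-0.84 to -0.46).

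The receptors and kinases upstream of these genes differed by less than 2-fold. Among 11 measured genes of interferon and JAK-STAT signalling the median log2 ratio was -0.20, with 1 at least 2-fold lower and 0 higher. Of all genes tested, 7.42% were at least 2-fold lower and 4.27% higher. Ifnar1 and Ifnar2, the chains of the type I interferon receptor, were 54.5 and 49.5 and 195 and 170 CPM, with log2 ratios of -0.14 (-0.62 to 0.31) and -0.20 (-0.45 to 0.04). Ifngr1 was 247 and 183 CPM, Ifngr2 121 and 126 and Jak1 359 and 459 CPM. Jak2, the kinase of the interferon-gamma receptor, was lower, at 132 and 85.9 CPM, and its log2 ratio was -0.62 (-0.97 to -0.28). The exception was Socs3, which restrains STAT3 signalling, at 429 and 114 CPM, and its log2 ratio was -1.90 (-2.20 to -1.62).

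Classical monocytes and B cells, gated in the same libraries, serve for comparison. There were 2360 and 620 monocytes and 3816 and 2976 B cells. For the 34 list members that passed in mature neutrophils, all 34 passed in monocytes, where 33 were at least 2-fold lower (5.38% of all genes tested there) and the median was -2.37. In B cells 33 passed, 32 were at least 2-fold lower (4.95% of all genes) and the median was -3.15. With 1 library per group, whether neutrophils differ from these cells was not tested. The order of genes was not the same in each cell type, as the plot of the list in 3 gates shows. Slfn4 had a log2 ratio of -3.92 in mature neutrophils and -4.72 in monocytes, whereas Slfn5 had -4.70 and -2.22, each with the constant of 5 CPM. Of the interferon-gamma genes that passed in mature neutrophils, 9 passed in monocytes. There 4 were at least 2-fold lower (5.38% of all genes) and the median was -0.67. In B cells 7 passed, 5 were at least 2-fold lower (4.95% of all genes) and the median was -1.63. Gbp2, from that list, was 67.8 and 80.6 CPM in monocytes, against 211 and 30.8 CPM in mature neutrophils. Immature neutrophils had Isg15 at 736 and 54.6 CPM and Slfn4 at 1638 and 323 CPM, from 11 and 85 cells.

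**Figure D3:**
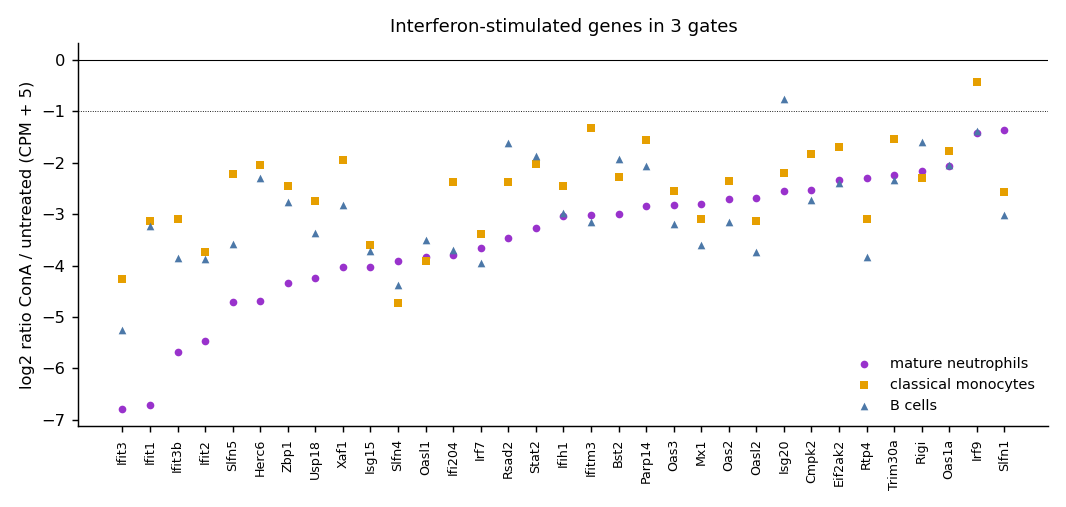
Log2 ratio of ConA over untreated CPM, with 5 CPM added, for 33 of the 34 interferon-stimulated genes that passed in mature neutrophils, in mature neutrophils (circles), classical monocytes (squares) and B cells (triangles). The dotted line marks a 2-fold lower level, and Ifit3 and Ifit1 lie lowest in mature neutrophils.

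Cytokine and chemokine genes did not move as a group. Of 11 measured members 1 was at least 2-fold lower and 1 higher, where 7.42% and 4.27% of all genes were. The median log2 ratio was -0.17. Cxcl2, a chemokine by which neutrophils call in more neutrophils, was 2930 and 582 CPM, and its log2 ratio was -2.33 (-2.46 to -2.21). Il1b, the gene of interleukin-1 beta, was at 4354 and 3553 CPM, and its log2 ratio was -0.29 (-0.35 to -0.24). It turned to 0.56 in cells with 1% hemoglobin or more and to 0.13 in cells with a granule UMI. In cells thinned to 1000 UMIs, Il1b was found in 90.6% (89.3 to 91.8) and 84.4% (79.8 to 88.3) and Cxcl2 in 68.4% (66.5 to 70.4) and 29.2% (24.2 to 34.7). Their unthinned shares were 94.9% and 92.7% for Il1b and 78.4% and 38.2% for Cxcl2. The share of cells with Il1b but without Cxcl2 was 27.5% and 58.1%. Gated B cells, which should lack both, gave 8.47% and 1.82% for Il1b and 10.8% and 0.685% for Cxcl2. Their median depths were 2746.5 and 3155 UMIs.

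Other members of this list differed in both directions. Osm, which encodes oncostatin M, was 375 and 208 CPM, and its log2 ratio was -0.85 (-1.07 to -0.64). The chemokine genes Ccl3, Ccl4 and Ccl6 were 98.2 and 128, 248 and 219, and 1799 and 2199 CPM. The prostaglandin synthase gene Ptgs2 was 199 and 314 CPM. Csf1, the growth factor of macrophages, was 88.1 and 221 CPM, and its log2 ratio was 1.33 (1.09 to 1.56). With no lineage gene required at 0 its log2 ratio was 0.94, under 2-fold.

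Genes of the NF-kappaB and AP-1 pathways were mostly close to equal, while most sensors were lower. The NF-kappaB and AP-1 list had a median of -0.04. Of its 18 members 2 were at least 2-fold lower and 0 higher, where 7.42% and 4.27% of all genes were. Those 2 were Nfkbia, the inhibitor that holds NF-kappaB in the cytoplasm, at 1126 and 391 CPM, and Ier3, an early response gene that NF-kappaB induces, at 363 and 146 CPM. In the 28 and 108 cells with 1% hemoglobin or more, Nfkbia went the other way, at a log2 ratio of 0.29. Nfkb1 was 157 and 129 CPM, and the AP-1 genes Fos and Junb were 1627 and 1723 and 2261 and 2194 CPM. Among 15 sensors and their partners 12 were below 0 and the median was -0.67. Of the 15, 2 were at least 2-fold lower, where 7.42% of all genes were. These were the lipopolysaccharide co-receptor gene Cd14 (110 and 42.9 CPM) and the inflammatory caspase gene Casp4 (376 and 155 CPM). Cd14 reached 50 CPM in the untreated cells alone. Tlr4, the lipopolysaccharide receptor, was 128 and 69.4 CPM and its adaptor Myd88 178 and 94.7 CPM. Acod1, whose enzyme makes itaconate, was 1726 and 273 CPM, and its log2 ratio was -2.66 (-2.85 to -2.48), and was singled out after its values were seen.

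Genes linked to neutrophil regulation and suppression had a median log2 ratio of -0.74 over 14 measured members, with 6 at least 2-fold lower, where 7.42% of all genes were, and 0 higher. Cd274, whose product PD-L1 restrains T cells, was 164 and 35.2 CPM, and its log2 ratio was -2.22 (-2.77 to -1.71). Cd274 reached 50 CPM in the untreated cells alone, so the filter itself requires its higher level there. The galectin-9 gene Lgals9 was 286 and 105 CPM and the inhibitory receptor gene Lilrb4a 928 and 428 CPM. Wfdc17, a secreted protein of myeloid cells, was 2290 and 991 CPM and the interleukin-4 receptor gene Il4ra 147 and 68.3 CPM. Il4ra was under 2-fold in 4 of 23 alternatives. Socs3 is the sixth. Cd274 and Socs3 are also on the interferon-gamma and JAK-STAT lists, so their values count in more than 1 list. In thinned cells Cd274 was found in 14.0% (12.6 to 15.5) and 5.32% (3.07 to 8.49), and unthinned in 26.8% and 9.46%. Gated B cells gave 15.1% and 13.5%, so they give no background for it, and its estimated free RNA level was 11.7 and 8.53 CPM.

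**Figure D4:**
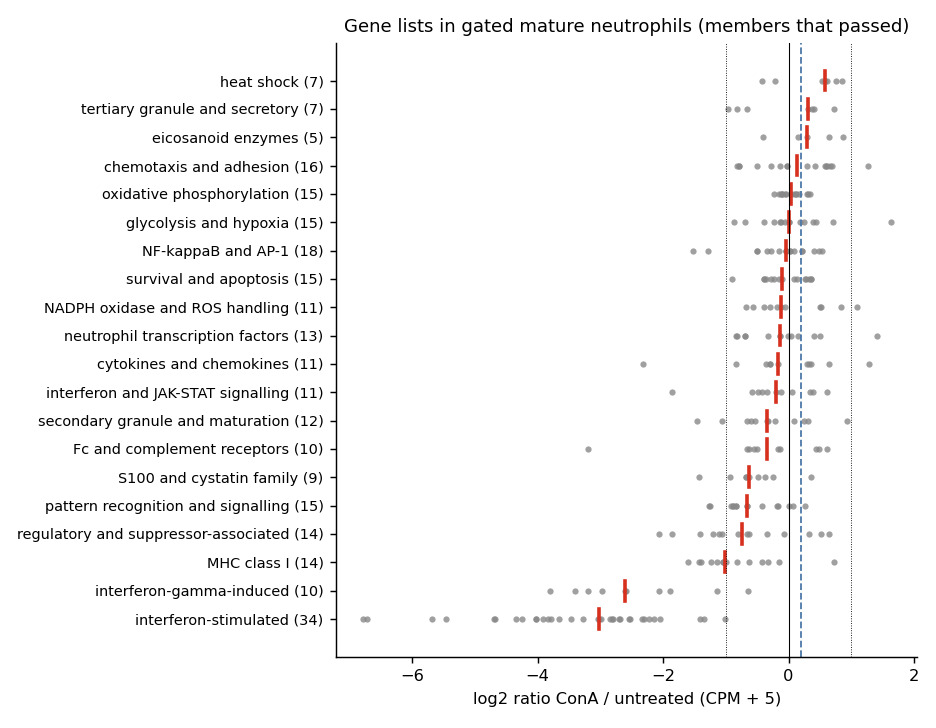
Each grey point is the log2 ratio (ConA over untreated, CPM plus 5) of a list member that reached 50 CPM and is not a gate gene. Red bars are list medians, numbers in brackets count the points, the dashed line is the median of all genes tested (0.20) and dotted lines mark 2-fold. The interferon lists stand to the left with medians of -3.03 and -2.60, and no list median lies beyond 2-fold on the right.

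Most homing genes differed by less than 2-fold. The 16 measured genes of chemotaxis and adhesion outside the gate had a median of 0.14. Of the 16, 1 was at least 2-fold higher and 0 lower, where 4.27% and 7.42% of all genes were. The higher gene was Cxcr4, the receptor that draws ageing neutrophils back to marrow, at 132 and 324 CPM, and its log2 ratio was 1.30 (1.10 to 1.49). In thinned cells Cxcr4 was found in 12.9% (11.6 to 14.4) and 26.6% (21.7 to 32.0). Its unthinned shares were 26.8% and 53.6%. In cells with fewer than 2000 UMIs the log2 ratio of Cxcr4 was 0.55, and in cells with 3 or 4 of the gate's neutrophil genes 0.46, both under 2-fold. B cells express Cxcr4 and give no background for it. Integrin genes were somewhat higher, with Itgam at 383 and 591 CPM, Itgal at 363 and 591 and Itga4 at 373 and 565, as was the hyaluronan receptor gene Cd44 at 1242 and 1959 CPM. The formyl peptide receptor genes Fpr1 and Fpr2, which sense bacterial products, were 269 and 153 and 201 and 111 CPM.

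**Figure D5:**
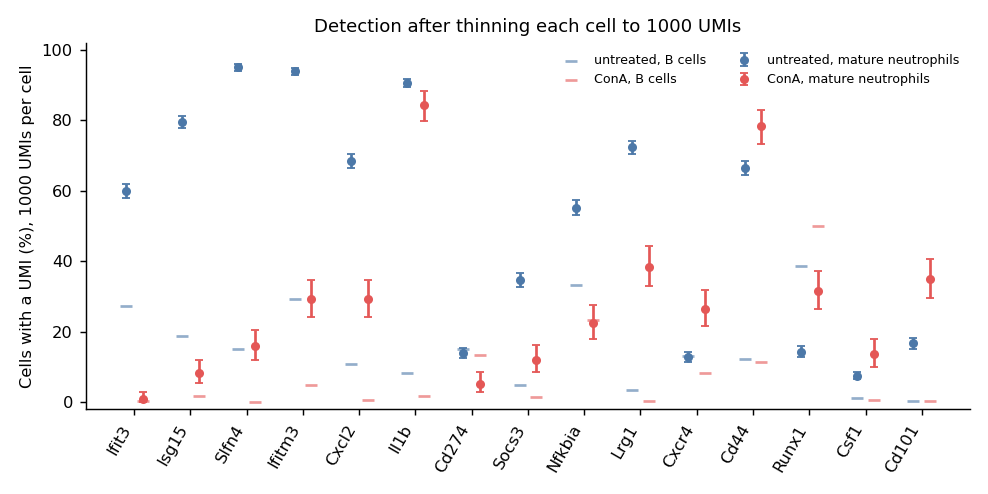
Percent of mature neutrophils with at least 1 UMI of each gene after every cell was thinned to 1000 UMIs (2243 untreated and 301 ConA cells), with exact 95% intervals, and dashes for gated B cells of the same library. Slfn4 was found in 95.05% and 15.9% of the neutrophils, Il1b in 90.6% and 84.4% and Cxcr4 in 12.9% and 26.6%.

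Granule genes outside the gate differed in both directions. Among 12 measured secondary granule and maturation genes 2 were at least 2-fold lower and 0 higher, where 7.42% and 4.27% of all genes were. The median of the list was -0.34. Lcn2, which encodes the iron-scavenging lipocalin-2, was 2420 and 1158 CPM and the chitinase-like gene Chil3 274 and 96.9 CPM. Lcn2 was at -0.87 in cells below 1% hemoglobin and at -0.85 with granule genes allowed up to 1%, both under 2-fold. Ceacam10 was higher, at 31.5 and 65.0 CPM, and its log2 ratio was 1.04 (0.60 to 1.46), or 0.94 with the constant of 5 CPM. The collagenase gene Mmp8 was 1031 and 818 CPM and the bactericidal protein gene Pglyrp1 1479 and 1575 CPM. Of the primary granule list only Lyz2 and Ctsc reached 50 CPM, Ctsc at 118 and 35.2 CPM, and Ctsc was under 2-fold in 3 of 23 alternatives. Of 7 measured tertiary granule and secretory genes 0 were past 2-fold, where 11.7% of all genes were. Of the 7, 4 were above 0 and the median was 0.32. Among them the tetraspanin gene Cd63 was 83.5 and 141 CPM, the cathepsin gene Ctsd 364 and 484 CPM and its relative Ctsb 217 and 109 CPM. Among 11 oxidase and redox genes the median was -0.12. Of the 11, 1 was at least 2-fold higher and 0 lower, where 4.27% and 7.42% of all genes were. The higher gene was Txnip, a thioredoxin inhibitor, at 208 and 451 CPM, whose log2 ratio was 0.90 when centred on the median gene. The oxidase subunit gene Ncf1 was 211 and 380 CPM.

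Transcription factors of neutrophils had a median of -0.13 over 13 genes. Of the 13, 1 was at least 2-fold higher and 0 lower, where 4.27% and 7.42% of all genes were. Runx1, a regulator of blood cell development, was 175 and 473 CPM, and its log2 ratio was 1.44 (1.28 to 1.60). In cells below 1% hemoglobin its ratio was 1.39, with the constant of 5 CPM. Cebpb, which drives emergency granulopoiesis, was 1259 and 775 CPM and Mxd1, a brake on Myc, 1550 and 862 CPM. Survival genes had a median of -0.10 over 15 members with 0 past 2-fold, where 11.7% of all genes were. Mcl1, on which neutrophils depend to live, was 1512 and 1146 CPM. MHC class I genes had a median of -1.02 over 14 members, with 7 at least 2-fold lower, where 7.42% of all genes were, and 0 higher. Over the 23 alternatives this median ranged from -1.22 to -0.60. Of the 7 genes, Psmb10 was under 2-fold in 8 alternatives, Nlrc5 in 5, Psmb9 in 4, H2-Q4 in 2 and H2-T23 in 1. Tap1, the peptide transporter, was 160 and 56.1 CPM and the light chain gene B2m 2060 and 1163 CPM. H2-Q7, at 59.1 and 101.3 CPM against free RNA of 30.4 and 60.8 CPM, went the other way, but the H2-Q genes are near-identical and their UMIs may be divided wrongly. Glycolysis and oxidative phosphorylation lists had medians of 0.01 and 0.04.

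The genes named as most different in the higher direction fall into red-cell genes and others. Among those with the largest ratios were Alas2, the first enzyme of heme synthesis in red cells, Bpgm, the enzyme that makes the hemoglobin regulator 2,3-bisphosphoglycerate, Tent5c and Car2, a carbonic anhydrase. Alas2 was 9.18 and 119 CPM, below its level of 23.2 and 151 CPM in the rest of the libraries, and had a log2 ratio of 3.13 with the constant of 5 CPM. In cells below 1% hemoglobin the ratios of these 4 genes ranged from 0.88 (Tent5c) to 1.88 (Alas2), and with predicted doublets removed from 0.90 (Tent5c) to 1.93 (Alas2). With S100a8, S100a9 and hemoglobin genes left out of the CPM total, the ratios ranged from 2.32 (Car2) to 3.22 (Alas2).

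Another 10 were Mgll, Pak1, Prkar2b, Slc43a2, Ano6, Gfod1, Egln3, Kif23, Dgkh and Myo1d, and their ratios in cells below 1% hemoglobin were from 1.46 (Kif23) to 2.09 (Mgll). Mgll, the enzyme that breaks down the endocannabinoid 2-AG, was 22.9 and 100 CPM, and its log2 ratio was 2.13 (1.74 to 2.51), and Dgkh, a diacylglycerol kinase, 114 and 353 CPM, and its log2 ratio was 1.64 (1.45 to 1.83). Egln3, an oxygen sensor that hydroxylates HIF, was 14.1 and 53.9 CPM, while Hif1a itself was 262 and 161 CPM. In thinned cells Dgkh was found in 10.3% (9.07 to 11.6) and 30.6% (25.4 to 36.1), and in 1.87% and 1.82% of B cells. Its unthinned shares in mature neutrophils were 21.8% and 52.7%. Cd101, a surface marker of mature neutrophils singled out after its values were seen, was 196 and 479 CPM, and its log2 ratio was 1.29 (1.13 to 1.45).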

How the data were processed

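Single-cell RNA was measured in 2 libraries made with 3′ chemistry, per the labels. The deposited values are UMI counts, not normalized, and Cell Ranger 8.0.1 wrote them, per the file headers. Cell Ranger 6.0.1, Seurat 4.3.0 and the build mm39 appear in the submitters' processing notes. No deposited barcode had fewer than 500 UMIs. The gate, its members and the gene lists were chosen with earlier results of these data known.

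UMIs of gated cells were summed per library and expressed as CPM (Python 3.11.15, numpy 2.4.6, scipy 1.17.1). Genes were read from 33696 features by symbol. Log2 ratios carry exact conditional Poisson intervals and shares exact Clopper-Pearson intervals, both at 95% and for counting error only. With 1 library per group no p-value was computed. List medians and 2-fold calls use CPM plus 5, printed ratios with intervals plain CPM. Genes named by size are, in each direction, the 15 largest ratios of at least 2-fold with 50 CPM or more in 1 library, 100 UMIs in all and 3 times the estimated free RNA. Gate, mitochondrial, ribosomal, hemoglobin, receptor segment and unnamed genes were left out. The 4 list members with the largest ratio were added per list, and other members to say what they are. Immature neutrophils, classical monocytes (at least 3 of Ly6c2, Ccr2, Csf1r, F13a1, Ms4a6c and Fn1) and B cells (at least 2 of Cd79a, Cd79b and Ms4a1) were gated likewise. The free share is the Igkc level of gated cells over that of all kept cells. Doublets were kept in the main values beyond the 4 lineage genes at 0. An alternative removed the cells scoring highest against simulated doublets (14.5% and 15.0% of kept cells, 8.17% and 14.8% of gated cells). The calculation of ratios was tested on simulated data. Alternatives numbered 20, and 3 more were added after the data were seen. Some members are not reported here by name.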

Additional observations from a re-analysis of the deposited data

How the results depend on the processing

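No paired analysis was possible because each group has 1 library. Reversal was followed for the 30 genes named by size and 67 other list and marker genes past 2-fold. Of these, 0 turned to the opposite direction in any of the 23 alternatives. The log2 ratio of the share in the gate was -3.18 with more lineage genes at 0, -2.74 with no lineage gene required at 0 and -3.50 in cells below 1% hemoglobin, and lay within its interval of -3.09 to -2.75 in the other gate settings. The 134 genes at least 2-fold higher became 67 when centred on the median gene, 74 with a constant of 20 CPM, 79 at 100 CPM or more, 224 at 20 CPM or more, 317 with no level filter, 212 with more lineage genes at 0, 217 without predicted doublets and 254 after thinning. The 233 genes at least 2-fold lower became 429 with no level filter and stayed within 1.5 times of 233 in the others. The median of the interferon-stimulated list was -2.75 with a constant of 20 CPM, and its range over all settings was -3.46 to -2.75. Of the 30 genes named by size, 29 stayed past 2-fold in every alternative, the exception being Tent5c. Of 67 other list and marker genes past 2-fold, 50 did. Of 23 list medians, 14 kept their sign. The cause of these differences was not tested. The 3 settings added after the data were seen were the hemoglobin limit, CPM without S100 and hemoglobin genes and no lineage gene at 0. Depth limits the ConA cells most, where 3 UMIs are worth 3.30 CPM.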

Other observations

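Another 788 untreated and 159 ConA cells met every criterion of the gate but held a UMI of Cd79a, Cd3e, Ncr1 or Siglech. Cd79a was found in 493 and 73 of them and Cd3e in 222 and 84. Their interferon-stimulated list summed to 18936 and 2382 CPM, a log2 ratio of -2.99. In these cells Cxcl2 had a log2 ratio of -3.04, Lrg1 of -1.76, Cxcr4 of 0.89 and Runx1 of 0.85, each with the constant of 5 CPM. Cxcr4 and Runx1 thus lay below the values of 1.27 and 1.41 in the gated cells and under 2-fold.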
